A study of Arabidopsis thaliana with 36 samples.

Results

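The hypocotyl above a fresh graft junction (the scion) was compared with the uncut hypocotyl (intact) in Col-0, the wild-type accession of Arabidopsis thaliana. The comparison takes 6 of the 36 libraries of the series: 3 libraries of Col-0 scion and 3 of Col-0 intact hypocotyl, chosen by their labels. Seedlings were 7 days old. They were grown in short days on plant agar, and grafted at the hypocotyl by cutting straight across it and setting the top of a seedling on the bottom of another. The scion pieces were 0.5 mm of hypocotyl next to the junction, taken 24 hours after grafting, and the intact pieces were 1 mm of hypocotyl of uncut plants with the same time label. A cotyledon was removed from grafted and intact plants alike, so the loss of a cotyledon is shared by the groups and the cut and joining are not. The 3 Col-0 rootstock libraries (0.5 mm below the junction, 24 hours) are used to say where the scion differs from the other side of the cut. The scions and intact hypocotyls of the mutants labelled dof quadruple, erf114,115 and anac071,096 hold the same contrast in 18 other libraries.

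When a stem is cut, the strands that carry sugar down and water up are severed. Auxin moving down from the shoot collects above the cut and sugar arriving in the phloem has no way on, while the tissue below loses both supplies. Around the cut, cells that had stopped dividing return to the cell cycle, adhere to the facing tissue and form new cambium, phloem and xylem that bridge the junction. Transcription factors of the DOF, ERF and NAC families take part in this response, and the mutants of the series were made in such genes. These statements are background and were not measured here.

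The level of a gene is given in CPM, that is counts per M counts, after edgeR's TMM factors were applied to the library totals. A log2 change is scion over intact, so a positive value is higher in the scion. CPM is not divided by gene length, so levels are compared between groups and not between genes. A gene is said to have been called, to have risen or to have fallen where edgeR's quasi-likelihood test gave a Benjamini-Hochberg adjusted p under 0.05 over the 19476 loci tested. The 6 libraries held 22.1 to 27.0 M counts, and neither group was sequenced more deeply than the other throughout. Mitochondrial and plastid loci made up 0.621% to 1.13% of the scion libraries and 0.805% to 2.14% of the intact libraries. The 10 most counted loci took 6.12% to 6.46% of the scion libraries and 8.55% to 10.5% of the intact libraries. In a principal component analysis of the 9 Col-0 libraries, the first component (50.3% of the variance) separated intact from grafted libraries, and the second (32.4%) separated scions from rootstocks. Col-0 rootstock replicate 1 counted 2514 loci that were at 0 in the other 35 libraries, so the counts and several of the values against the rootstock are also given without it. Pieces were bulk tissue, in which fewer cells of a type and less RNA per cell cannot be told apart. The scion pieces came from beside the cut and the intact pieces from a longer stretch, whose position along the hypocotyl is not stated, so position and grafting cannot be told apart either.

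A large part of the expressed genes differed between the scion and the intact hypocotyl. Of the 19476 loci tested, 5655 (29.0%) were called higher and 4903 (25.2%) lower, or 54.2% in all, and the median log2 change of all tested loci was 0.01. At least 2-fold changes were called for 3846 loci (19.7%) upward and 3118 (16.0%) downward. By the fitted log2 change, the largest changes were mostly upward. At 16-fold or more, 684 loci were called higher and 193 lower, and 287 and 46 passed 64-fold. These tallies include loci with 0 or very few counts in a group, where the fitted value is not a measured ratio. There were 91 loci with 0 counts in all 3 intact libraries and at least 10 counts in every scion library, and 10 loci the other way round. Of each kind, 1 locus is given, the one with the highest mean level among those with a reference symbol. NDB4, a mitochondrial NAD(P)H dehydrogenase, had the highest scion level of the 91, with 58.8, 61.9 and 60.8 CPM in the scions and 0 counts in the intact hypocotyls. Of the 10, GDH3, which encodes a subunit of glutamate dehydrogenase, had 1.84, 2.097 and 2.25 CPM in the intact hypocotyls and 0 counts in the scions. AT4G15680, which has no symbol, had a higher mean intact level (2.27 CPM, against 2.06 CPM for GDH3).

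**Figure D1:**
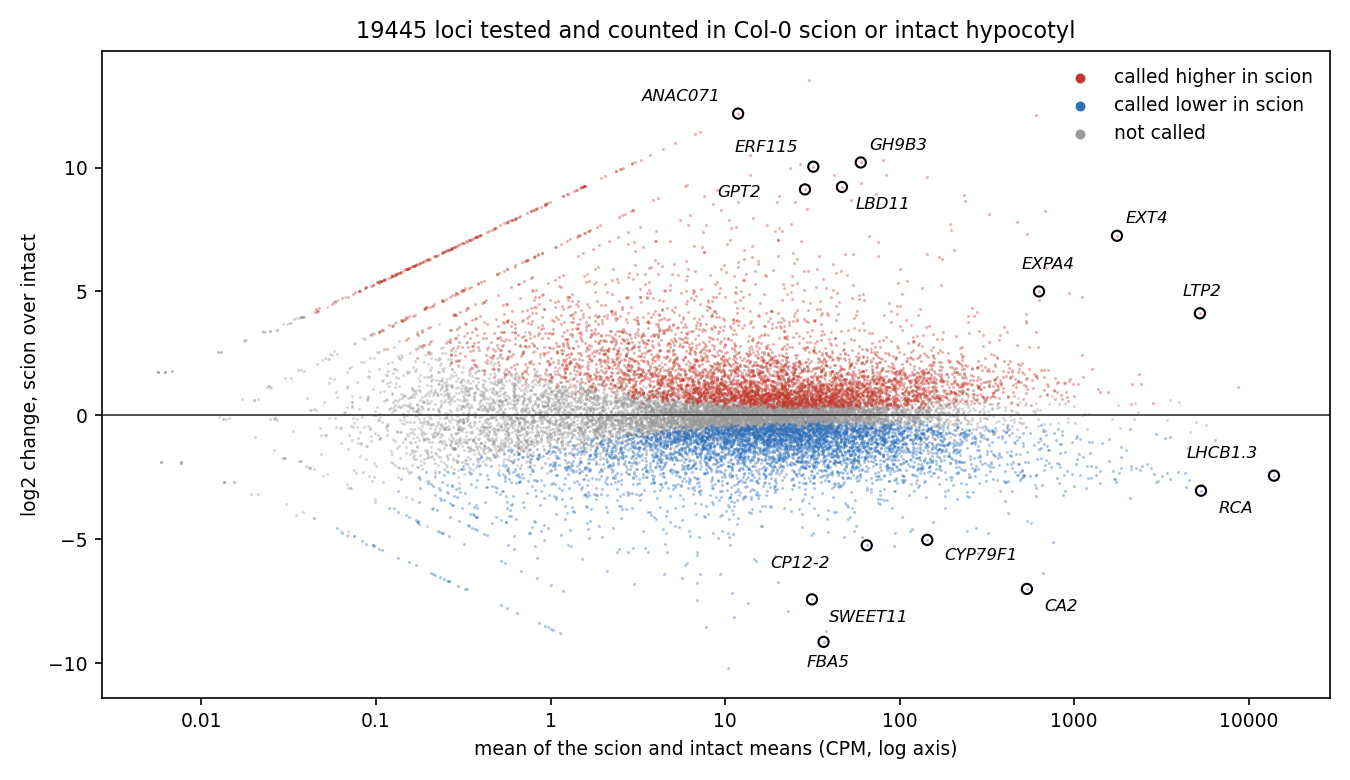
Log2 change of scion over intact (vertical axis) against the mean of the scion and intact means in CPM (horizontal axis, log scale) for the 19445 tested loci with a count in either group. Each point is a locus, coloured by its call, and circles mark genes described in the text. At low levels some loci have 0 or very few counts in a group, where the fitted log2 change is not a measured ratio. The abundant loci at the right that were called lower, such as RCA and LHCB1.3, are genes of photosynthesis.

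**Figure D2:**
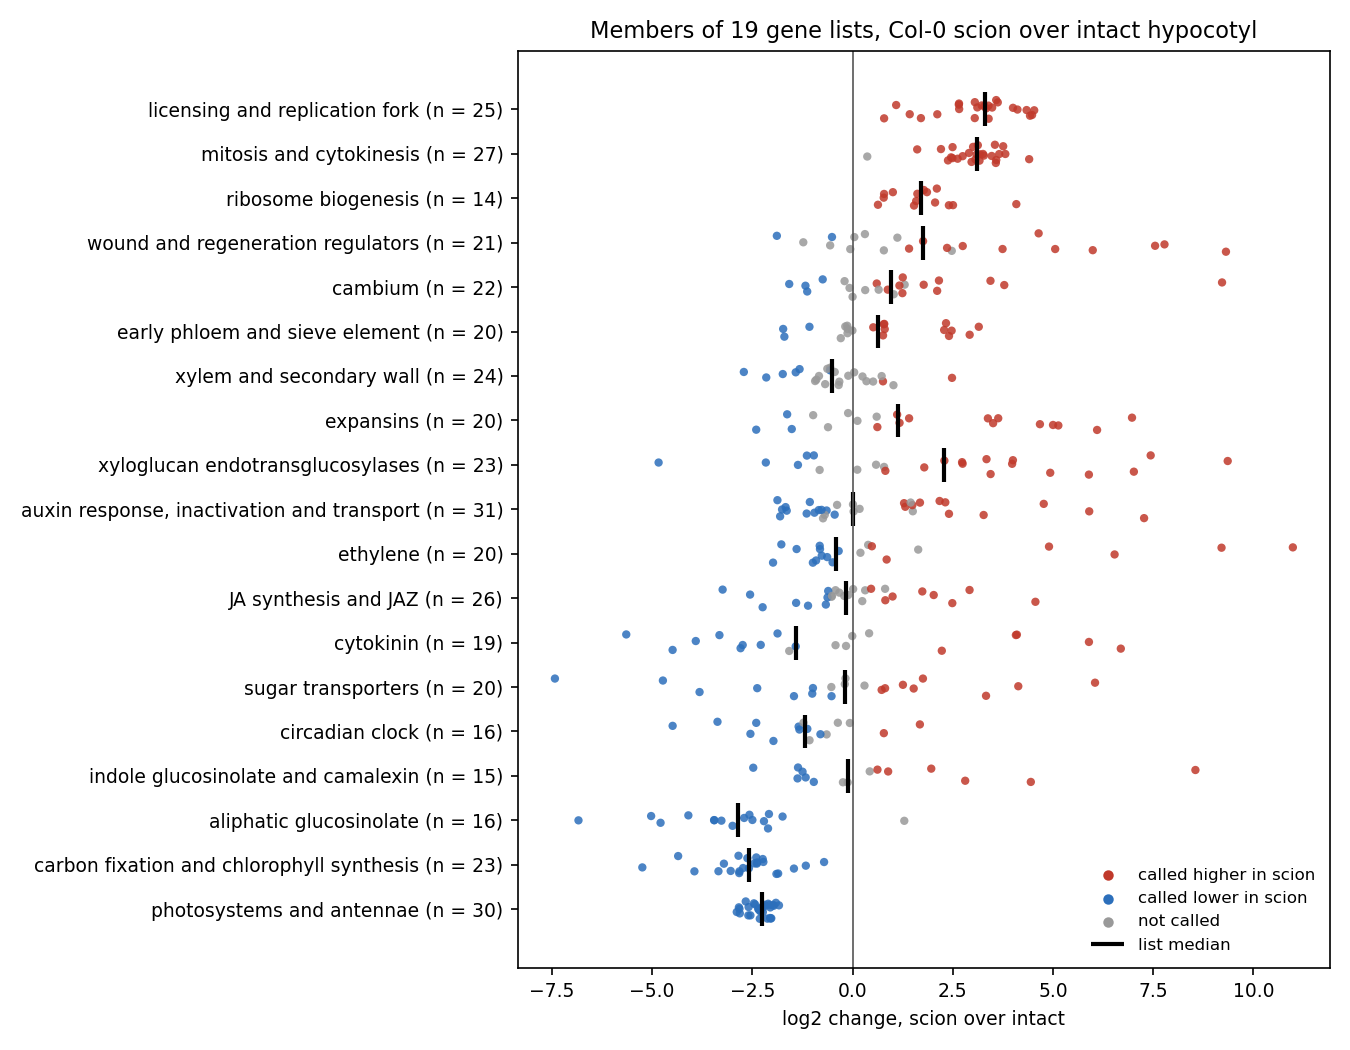
Log2 change of scion over intact (horizontal axis) for the tested members of 19 gene lists (rows, with the number tested). Each point is a gene, coloured by its call, and the black bar is the list's median. All 25 replication genes lie to the right of 0 and all 30 photosystem genes to the left, while the hormone lists have called members on both sides.

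The transcription factors whose genes the series' mutants target were measured first. Col-0 carries none of these mutations, so the values are those of wild-type tissue. The labels used here do not name the genes of dof quadruple, and the DOF genes given below were taken as its targets. Of the 8 genes, 7 were called higher in the scion, beside 29.0% of all tested loci. HCA2 (AT5G62940, chromosome 5), TMO6 (AT5G60200, chromosome 5), DOF2.1 (AT2G28510, chromosome 2) and DOF6 (AT3G45610, chromosome 3) encode DOF zinc finger factors that act in the vascular cylinder. DOF2.1 stood at 236, 250.5 and 233 CPM in the scions, against 16.4, 9.72 and 17.5 CPM in the intact hypocotyls (log2 change 4.04 ± 0.28, adjusted p 6.6e-13). TMO6 stood at 116, 119.8 and 120.0 CPM in the scions, against 26.4, 24.8 and 30.7 CPM in the intact hypocotyls (2.12 ± 0.20), and HCA2 at 20.5, 23.5 and 26.7 CPM in the scions, against 6.57, 7.31 and 8.44 CPM in the intact hypocotyls (1.66 ± 0.20). In all 3 genes every scion library lay above every intact library, and the TMO6 values of the scions lay close together. DOF6 was counted at a low level, with 1.64, 2.47 and 2.47 CPM in the scions, against 0.965, 1.05 and 1.24 CPM in the intact hypocotyls. Its groups did not overlap, but the change of 1.01 ± 0.47 did not pass (adjusted p 0.070, called under DESeq2 and in a fit of the 6 libraries alone).

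ERF114, ERF115, ANAC071 and ANAC096 had almost no counts in uncut tissue. ERF115 (AT5G07310, chromosome 5), known from stem cell replenishment after cell death in roots, stood at 54.7, 70.7 and 66.4 CPM in the scions, against 0.138, 0 and 0.0459 CPM in the intact hypocotyls (log2 change 10.04 ± 0.50, adjusted p 7.3e-15). ERF114 (AT5G61890, chromosome 5) stood at 63.0, 63.5 and 49.3 CPM in the scions, against 0, 0.454 and 0 CPM in the intact hypocotyls (8.34 ± 0.56), and all of its intact counts came from 1 library. ANAC096 (AT5G46590, chromosome 5) stood at 29.0, 37.96 and 32.8 CPM in the scions, against 0.413, 0.629 and 0.918 CPM in the intact hypocotyls (5.66 ± 0.36). ANAC071 (AT4G17980, chromosome 4), known from the healing of cut flowering stems, had 18.7, 27.4 and 25.2 CPM in the scions and 0 counts in the intact hypocotyls, so the scions were at least 573-fold higher than a floor of 3 counts over the intact group. In none of these 4 genes did the groups overlap. The sizes of the ERF rises rest on few intact counts: the log2 change of ERF115 was 11.32 without Col-0 intact replicate 1 and 9.37 without intact replicate 2, and that of ERF114 was 13.47 without intact replicate 2, where no intact count is left and the fitted value is no measured ratio.

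**Figure D3:**
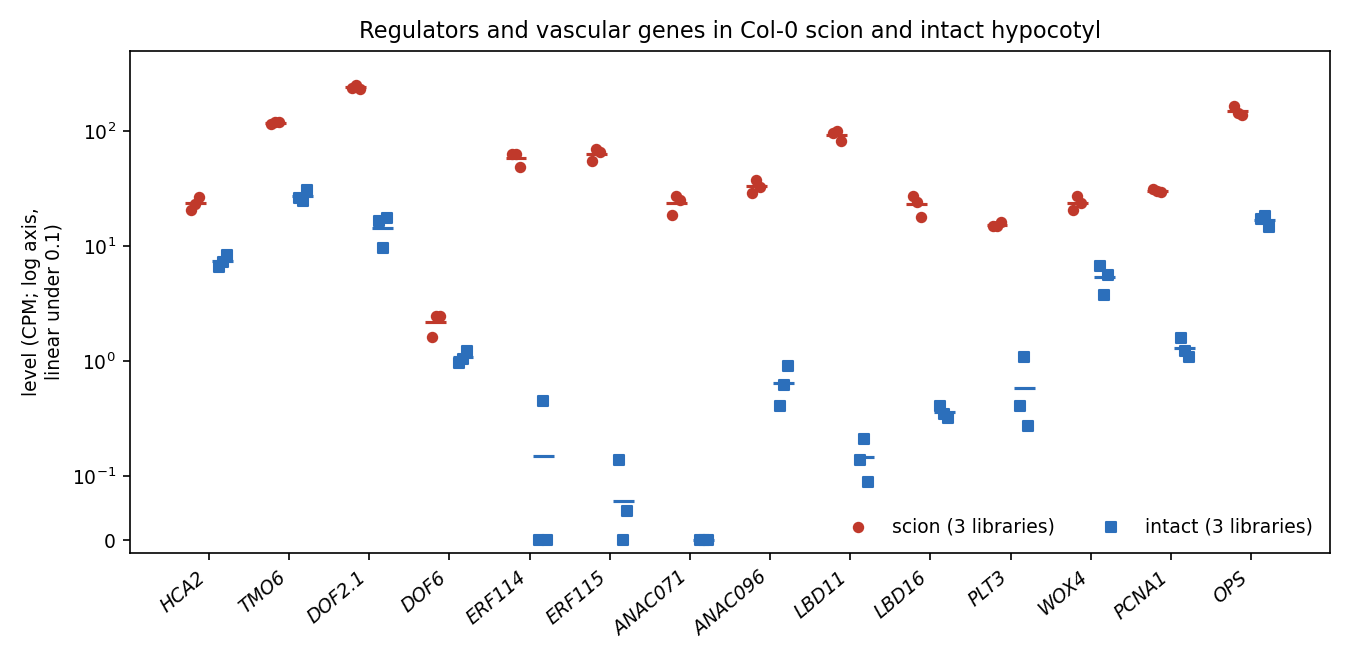
Level in CPM (vertical axis, log scale that turns linear under 0.1 so that 0 can be drawn) of 14 regulators and vascular genes in the 3 Col-0 scion libraries (circles) and the 3 intact libraries (squares). Horizontal bars are means. No gene has overlapping groups, and ANAC071 is at 0 in the 3 intact libraries.

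Other regulators of wounding and regeneration followed in part. In this list, of 21 tested members 11 were called higher and 2 lower, beside 29.0% and 25.2% of all loci, with a median log2 change of 1.76. WOX11, a homeobox gene known for the first step of adventitious root formation, stood at 10.05, 12.9 and 13.4 CPM in the scions, against 0, 0 and 0.0459 CPM in the intact hypocotyls. It had 1 intact count, which gives a CPM ratio of 874 with a 95% counting interval of 157 to 34559. LBD16, a lateral organ boundaries gene that acts downstream of auxin in lateral root founder cells, stood at 27.6, 24.2 and 17.98 CPM in the scions, against 0.413, 0.350 and 0.321 CPM in the intact hypocotyls (log2 change 5.99 ± 0.50, adjusted p 3.6e-11). Both genes were near 0 in every intact library and well counted in every scion library. PLT3 (AINTEGUMENTA-like 6), a PLETHORA gene of meristem identity, stood at 14.9, 15.1 and 16.4 CPM in the scions, against 0.413, 1.08 and 0.275 CPM in the intact hypocotyls (4.64 ± 0.44, and 5.47 without intact replicate 2). The precursor of the growth peptide phytosulfokine encoded by PSK5 stood at 85.1, 138 and 122 CPM in the scions, against 7.99, 10.2 and 7.53 CPM in the intact hypocotyls (3.74 ± 0.41), and the heat shock factor gene HSFB1 at 119.8, 122 and 83.2 CPM in the scions, against 17.6, 16.5 and 29.3 CPM in the intact hypocotyls (2.36 ± 0.27). These rises were also separated between the groups. The relative WOX13 rose by 1.41 ± 0.25, and CUC3, a boundary gene, had a CPM ratio of 36.8 (counting interval 12.3 to 181). WIND1, known as a wound-induced regulator of callus formation, averaged 191 CPM in the scions and 185 CPM in the intact hypocotyls and was not called (log2 change 0.04 ± 0.37, adjusted p 0.934). RAP2.6 fell (-1.89 ± 0.39), with 8.63, 18.9 and 13.5 CPM in the scions, against 44.1, 47.4 and 60.7 CPM in the intact hypocotyls, and SCL5 fell by less (-0.51 ± 0.13). Of the 30 genes listed, 9 had too few counts to be tested, among them ESR1, ESR2 and WOX5.

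The scion expressed the machinery that copies DNA. Of 25 genes of origin licensing and the replication fork, all were tested and all 25 were called higher, beside 29.0% of all loci. Their log2 changes were 0.79 to 4.53, with a median of 3.29. PCNA1, the sliding clamp that holds the polymerase on DNA, stood at 31.3, 30.3 and 29.4 CPM in the scions, against 1.61, 1.22 and 1.101 CPM in the intact hypocotyls (log2 change 4.53 ± 0.30, adjusted p 4.4e-13). ORC1B of the origin recognition complex stood at 16.1, 14.8 and 16.0 CPM in the scions, against 0.505, 0.909 and 0.872 CPM in the intact hypocotyls (4.34 ± 0.32), and MCM4, a subunit of the replicative helicase, at 20.4, 18.7 and 15.3 CPM in the scions, against 1.38, 2.27 and 0.688 CPM in the intact hypocotyls (3.62 ± 0.28). Each of these genes was at or under 2.27 CPM in every intact library and at 14.8 CPM or more in every scion library. RNR1, the large subunit of the enzyme that makes deoxyribonucleotides, had a higher level in both groups, with 50.8, 59.8 and 54.0 CPM in the scions, against 9.09, 11.4 and 5.69 CPM in the intact hypocotyls (2.65 ± 0.18, adjusted p 9.1e-13). The smallest change was that of LIG1, the DNA ligase, at 25.5 CPM in the scions and 14.8 CPM in the intact hypocotyls (0.79 ± 0.18). Together the 25 genes took 0.0459%, 0.0529% and 0.0506% of the scion libraries, against 0.00622%, 0.00844% and 0.00490% of the intact libraries. The exact permutation p of such a share is 0.1, the smallest that 3 libraries against 3 allow.

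E2F factors are known to bind the letters TTTCCCGC or TTTGGCGC in front of plant replication genes, so the 250 bases before each start were searched for these letters on both strands. They were found in front of 9 of 25 (36.0%) of the replication genes, beside 0.958% of all protein-coding promoters of this length and 1.39% of those of loci called higher. The stretches of 4 helicase subunits are shown because they carry these letters and belong to genes called higher, and capitals mark the match. Sequences are from the RefSeq TAIR10.1 genome, printed in the direction of the gene. For MCM4 (AT2G16440) the stretch is chr2:7130741-7130780 on the minus strand. For MCM2 (AT1G44900) the stretch is chr1:16970174-16970213 on the plus strand, and for MCM5 (AT2G07690) the stretch is chr2:3527501-3527540 on the minus strand. For MCM6 (AT5G44635) the stretch is chr5:18010690-18010729 on the minus strand.
MCM4: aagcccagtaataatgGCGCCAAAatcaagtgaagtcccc
MCM2: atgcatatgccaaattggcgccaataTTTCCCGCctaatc
MCM5: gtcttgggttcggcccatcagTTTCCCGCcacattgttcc
MCM6: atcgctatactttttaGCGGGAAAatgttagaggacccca

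Genes of mitosis and cytokinesis were higher as well. Of 27 tested, 26 were called higher and 0 lower, with a median of 3.09. The counts here are to be set beside the 29.0% of all loci called higher and the 25.2% called lower. CYCB1;4, a B-type cyclin that drives entry into mitosis, stood at 23.5, 20.4 and 27.2 CPM in the scions, against 2.85, 2.06 and 0.688 CPM in the intact hypocotyls (log2 change 3.66 ± 0.29, adjusted p 1.7e-11). CDKB2;1, a kinase of a class particular to plants that peaks at mitosis, stood at 23.1, 25.6 and 31.1 CPM in the scions, against 2.66, 2.59 and 1.51 CPM in the intact hypocotyls (3.55 ± 0.31). CKS2, a small CDK-binding subunit, stood at 23.8, 35.8 and 29.6 CPM in the scions, against 5.92, 4.65 and 5.69 CPM in the intact hypocotyls (2.46 ± 0.25). Every scion value of these 3 genes was more than 3 times the highest intact value. KN, the syntaxin of the forming cell plate, averaged 26.7 CPM in the scions and 3.57 CPM in the intact hypocotyls (2.90 ± 0.31). CYCB1;2 rose by 3.57 ± 0.32, and 4.24 without intact replicate 2. TES, a kinesin of cytokinesis in pollen, was the member not called (0.37 ± 0.45, adjusted p 0.508). Among genes whose annotation names a kinesin motor, 16 of 27 tested were called higher and 1 lower. Of tubulin and tubulin-like genes, 11 of 18 were called higher and 4 lower, with TUB1 at 17.9, 17.7 and 23.9 CPM in the scions, against 2.11, 1.26 and 1.74 CPM in the intact hypocotyls. Core histone genes, whose products package new DNA, were called higher in 28 and lower in 9 of 45 tested, with HTA6 at 117, 129 and 119 CPM in the scions, against 14.4, 13.0 and 8.90 CPM in the intact hypocotyls.

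The letters CNAACGG are the core of the element that MYB3R factors are known to bind in front of genes of G2 and M phase. They were found on either strand in the 250 bases before 8 of 27 (29.6%) of the mitosis genes and 16 of 51 (31.4%) of the core histone genes, beside 4.5% of all protein-coding promoters. The MYB3R4 gene itself averaged 11.04 CPM in the scions and 0.892 CPM in the intact hypocotyls (log2 change 3.58 ± 0.40, and 4.31 without intact replicate 2). The stretches nearest the start are shown for 4 cyclin genes of the list, with the match in capitals, again from TAIR10.1 in the direction of the gene. For CYCB1;2 (AT5G06150) the stretch is chr5:1861704-1861743 on the minus strand. For CYCA1;1 (AT1G44110) the stretch is chr1:16777511-16777550 on the minus strand, and for CYCB1;1 (AT4G37490) the stretch is chr4:17624346-17624385 on the minus strand. For CYCB2;1 (AT2G17620) the stretch is chr2:7663952-7663991 on the plus strand.
CYCB1;2: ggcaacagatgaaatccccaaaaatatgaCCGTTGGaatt
CYCA1;1: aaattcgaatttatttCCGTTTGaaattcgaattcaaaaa
CYCB1;1: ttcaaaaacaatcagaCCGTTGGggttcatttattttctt
CYCB2;1: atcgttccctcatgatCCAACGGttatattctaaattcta

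Genes that set the pace of the cell cycle moved both ways. Of 20 tested D-type cyclins and CDK inhibitors, 9 were called higher and 6 lower, beside 29.0% and 25.2% of all loci, with a median of 0.44. CYCD3;1, a cyclin that answers cytokinin and sugar, stood at 19.9, 33.5 and 27.3 CPM in the scions, against 12.6, 9.26 and 8.90 CPM in the intact hypocotyls (log2 change 1.39 ± 0.19, adjusted p 2.5e-07). The inhibitors KRP2 (28.02, 21.1 and 25.4 CPM in the scions, against 59.8, 59.5 and 77.8 CPM in the intact hypocotyls) and KRP4 (12.9, 14.5 and 12.2 CPM in the scions, against 28.6, 34.4 and 30.7 CPM in the intact hypocotyls) fell by 1.40 and 1.24 on the log2 scale. KRP1 and KRP7 fell too, while KRP3, KRP5 and KRP6 rose, as did SMR4, which averaged 6.25 CPM in the scions and 0.223 CPM in the intact hypocotyls. So the groups of KRP2 and KRP4 were separated downward and those of CYCD3;1 upward, and the inhibitor family as a whole had no single direction.

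Genes of ribosome biogenesis, cytosolic ribosomal proteins and proteasomes were higher in the scion, and those of chloroplast ribosomal proteins were mostly lower. All 14 genes of ribosome biogenesis were called higher (median 1.70). Of all loci, 29.0% were called higher and 25.2% lower. FIB2, a fibrillarin of the nucleolus that methylates ribosomal RNA, stood at 193, 183 and 169 CPM in the scions, against 7.35, 9.23 and 15.6 CPM in the intact hypocotyls (log2 change 4.08 ± 0.39, adjusted p 6.1e-10). NUC1, the nucleolin of ribosomal RNA transcription and processing, stood at 486, 377 and 365 CPM in the scions, against 99.6, 115 and 124 CPM in the intact hypocotyls (1.86 ± 0.17), and EBP1, a growth regulator, at 197, 197 and 162 CPM in the scions, against 34.2, 47.9 and 51.3 CPM in the intact hypocotyls (2.06 ± 0.19). The groups of all 3 were far apart. Of the ribosomal protein loci whose annotation note lists the cytosolic ribosome, 122 of 128 tested were called higher and 1 lower, with a median of 1.49. They took 3.73%, 3.73% and 3.41% of the scion libraries, against 1.101%, 1.03% and 1.33% of the intact libraries. RPL16B stood at 356, 337 and 285 CPM in the scions, against 97.8, 90.3 and 123 CPM in the intact hypocotyls (1.65 ± 0.24, adjusted p 1.3e-06). The member called lower, EMB3136, whose note lists the chloroplast too, averaged 11.7 CPM in the scions and 24.6 CPM in the intact hypocotyls. The notes of 17 members list both compartments. Of ribosomal protein loci whose note lists the chloroplast alone of these, 5 of 30 tested were called higher and 20 lower, with a median of -1.09. This split was made after the values were seen. Of 38 tested proteasome subunits, 35 were called higher and 1 lower, with a median of 1.08 and PAG1, an alpha subunit of the core, at 228, 205 and 193 CPM in the scions, against 58.7, 67.7 and 71.7 CPM in the intact hypocotyls. Ribosomal protein genes have near-identical copies, so single members are less certain than the family's sum.

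The letters TGGGCC, known as the site II element of genes of growing tissue, were found on either strand in the 250 bases before 78 of 138 (56.5%) of the cytosolic ribosomal protein genes and 15 of 39 (38.5%) of the proteasome genes. The same letters stood before 13 of 25 (52.0%) of the replication genes, beside 13.7% of all protein-coding promoters, 19.4% for loci called higher and 14.3% for loci called lower. The share was 16.9% for tested loci. It was only 7.67% for loci called at least 16-fold higher by the fitted change and 4.17% for WRKY genes, so the letters did not mark the largest fitted rises. The telo box AAACCCTAA preceded 10.9% of the ribosomal protein genes and 2.62% of all. Of the 2 stretches shown from TAIR10.1, RPS15 holds the letters on both strands, overlapping as TGGGCCCA, and RPL16A also holds a G-box (CACGTG) further from the start. For RPS15 (AT1G04270) the stretch is chr1:1143239-1143278 on the minus strand. For RPL16A (AT2G42740) the stretch is chr2:17791635-17791674 on the plus strand.
RPS15: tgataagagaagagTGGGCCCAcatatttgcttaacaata
RPL16A: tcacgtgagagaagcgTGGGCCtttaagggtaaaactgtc

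**Figure D4:**
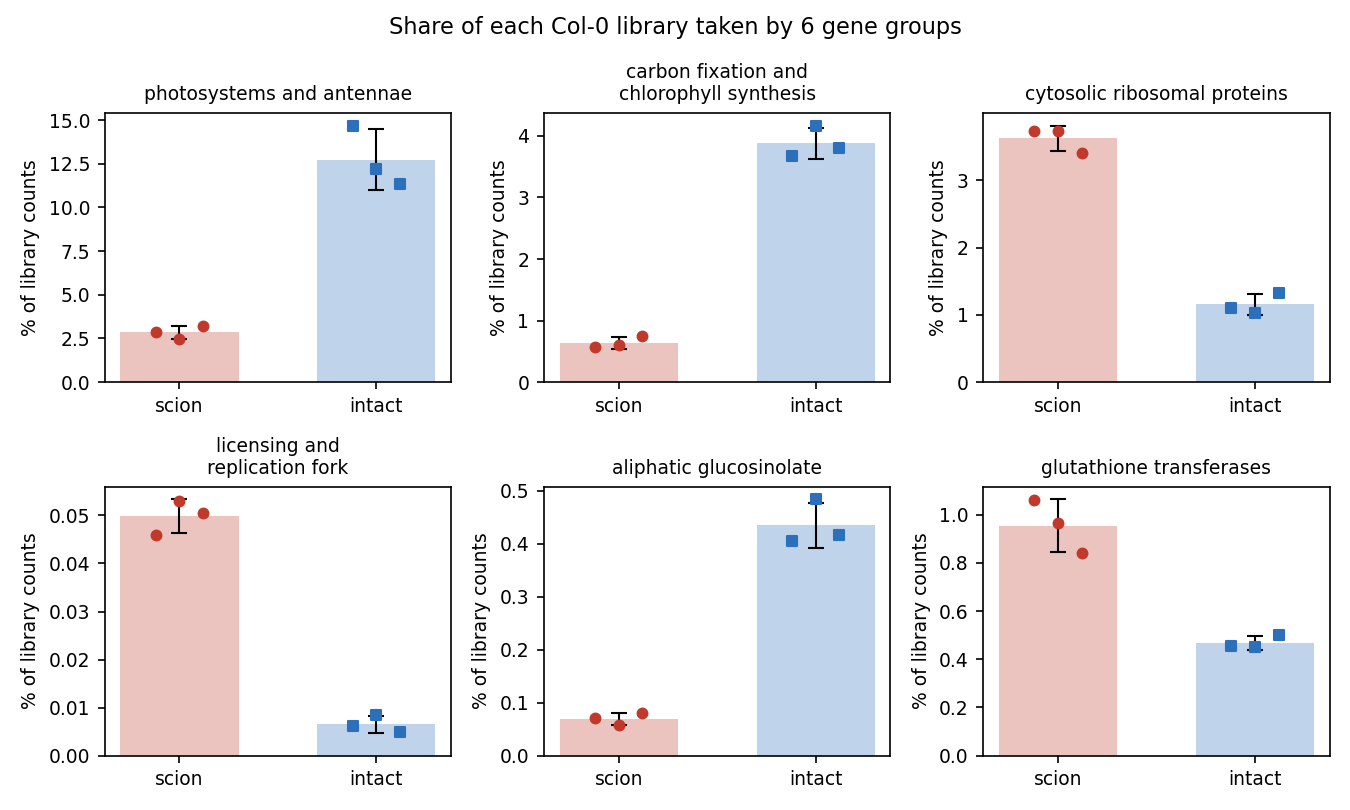
Summed counts of 6 gene groups as a percent of all counts of a library (vertical axes, each from 0), for Col-0 scion (circles, left) and intact (squares, right). Bars are means of 3 libraries, points are libraries and error bars are the SD. In each panel the groups are separated: photosystem genes took 2.48% to 3.22% of the scion libraries and 11.3% to 14.7% of the intact libraries, and cytosolic ribosomal proteins took 3.41% to 3.73% of the scion libraries and 1.03% to 1.33% of the intact libraries.

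Genes of photosynthesis were lower in the scion without exception in these lists. All 30 nuclear genes of the photosystems and their light-harvesting antennae were called lower, within a range of -2.89 to -1.84 and with a median of -2.27, beside 25.2% of all tested loci called lower. PSBO2, a subunit of the water-splitting complex, stood at 145, 146 and 197 CPM in the scions, against 1185, 1219 and 1022 CPM in the intact hypocotyls (log2 change -2.81 ± 0.16, adjusted p 2.0e-14). PSAE-1 of photosystem I stood at 94.5, 96.6 and 117 CPM in the scions, against 740.1, 559 and 570.2 CPM in the intact hypocotyls (-2.60 ± 0.18). LHCB1.3, the most counted antenna gene, stood at 4481, 3460.4 and 5128 CPM in the scions, against 34045, 16333 and 20194 CPM in the intact hypocotyls (-2.43 ± 0.34). The highest scion library was below the lowest intact library in each. The list took 2.88%, 2.48% and 3.22% of the scion libraries, against 14.7%, 12.2% and 11.3% of the intact libraries. The LHCB and RBCS genes are families of near-identical copies, and their single values are uncertain for that reason.

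Carbon fixation and chlorophyll synthesis followed the same direction, with 23 of 23 tested genes called lower and a median of -2.59. CP12-2, a small protein that gates Calvin cycle enzymes, showed the largest fall of the list, with 2.46, 3.05 and 4.49 CPM in the scions, against 139, 107 and 132 CPM in the intact hypocotyls (log2 change -5.24 ± 0.29, adjusted p 1.1e-14). RCA, which reactivates Rubisco, stood at 1141, 1018 and 1303 CPM in the scions, against 9625, 10484 and 8371 CPM in the intact hypocotyls (-3.04 ± 0.16). CHLM, an enzyme of chlorophyll synthesis, stood at 76.6, 78.2 and 94.8 CPM in the scions, against 457, 454 and 454 CPM in the intact hypocotyls (-2.45 ± 0.16). The intact values of CHLM were nearly equal, and all scion values lay far below them. The carbonic anhydrase genes CA1 and CA2 fell further, with CA2 at 2.31, 6.34 and 16.3 CPM in the scions, against 1020.5, 995 and 1175 CPM in the intact hypocotyls (-7.00 ± 0.75, and -7.93 without scion replicate 3). GLK2, a regulator of chloroplast development, averaged 70.3 CPM in the scions and 255 CPM in the intact hypocotyls (-1.86 ± 0.18), and its partner GLK1 fell by 0.71 on the log2 scale. Guard cell markers fell only in part: 4 of 9 tested were called lower, 0 higher and 5 neither, beside 25.2% of all loci called lower. Without Col-0 scion replicate 1 the lower calls numbered 2. The log2 changes ran from -1.79 to 0.35. None of the 10 markers was at 0 in all 6 libraries, and the list took 0.00470%, 0.00470% and 0.00468% of the scion libraries, against 0.00659%, 0.00986% and 0.00750% of the intact libraries. Their part in these results was not tested.

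The letters of the G-box, CACGTG, which light-responsive promoters often carry, preceded 4 of 30 (13.3%) of the photosystem genes and 4 of 24 (16.7%) of the carbon fixation genes, beside 6.49% of all promoters. The share was 7.37% for tested loci and 8.14% for loci called lower. It was 6.25% for aliphatic glucosinolate genes, and 11.8% and 11.1% for core histone and WRKY genes, which were called higher more often than lower. So the letters were not particular to genes that fell.

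Genes that respond to sugar supply moved both ways. The counts of these lists are to be set beside the 29.0% of all loci called higher and the 25.2% called lower. Among genes known to be induced by sugar starvation, of 14 tested members 2 were called higher and 6 lower, with a median log2 change of -0.78. TPS8, a trehalose phosphate synthase homologue, stood at 30.2, 35.8 and 21.9 CPM in the scions, against 195, 244 and 169.7 CPM in the intact hypocotyls (log2 change -2.79 ± 0.28, adjusted p 1.3e-09). DIN6, the asparagine synthetase of dark-grown and starved tissue, stood at 33.2, 12.6 and 59.1 CPM in the scions, against 405, 367 and 219.5 CPM in the intact hypocotyls (-3.24 ± 0.53, and -3.85 without scion replicate 3). The 2 members that rose were DIN2, a beta-glucosidase gene whose call was lost without Col-0 scion replicate 2 (2.79, adjusted p 0.13), and EXO, better known as a growth gene that answers brassinosteroid. EXO stood at 106, 139 and 116 CPM in the scions, against 6.52, 2.59 and 5.46 CPM in the intact hypocotyls (4.64 ± 0.32). Among genes of sugar use and starch known to be induced by sugar, 8 of 13 tested were called higher and 1 lower. CWINV1, the cell wall invertase that splits arriving sucrose, stood at 181, 229.9 and 191 CPM in the scions, against 8.13, 7.62 and 4.41 CPM in the intact hypocotyls (4.90 ± 0.32, adjusted p 2.4e-13). GPT2, which brings glucose phosphate into plastids, stood at 61.5, 43.6 and 66.5 CPM in the scions, against 0, 0.0350 and 0.275 CPM in the intact hypocotyls (9.12 ± 1.13, and 11.17 without intact replicate 3). HXK1, the glucose-sensing hexokinase, stood at 154, 129 and 133 CPM in the scions, against 45.9, 43.6 and 55.02 CPM in the intact hypocotyls (1.52 ± 0.16). These scion and intact values did not overlap. SS2, a starch synthase, was the member that fell (-0.82 ± 0.14).

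Sugar transporters also moved both ways, with 8 of 20 tested called higher and 8 lower, beside 29.0% and 25.2% of all loci (5 lower without Col-0 scion replicate 1). SWEET11 and SWEET12, exporters of phloem loading, fell most. SWEET11 stood at 0.484, 0.271 and 0.324 CPM in the scions, against 70.5, 52.6 and 64.3 CPM in the intact hypocotyls (log2 change -7.43 ± 0.39, adjusted p 5.3e-15), SWEET12 at 10.4, 3.66 and 6.40 CPM in the scions, against 238, 170.4 and 134 CPM in the intact hypocotyls (-4.73 ± 0.40) and the vacuolar SWEET2 at 4.28, 4.20 and 6.88 CPM in the scions, against 87.6, 52.8 and 76.0 CPM in the intact hypocotyls (-3.82 ± 0.31). SUC2, which loads sucrose into companion cells, averaged 63.2 CPM in the scions and 174 CPM in the intact hypocotyls and fell by 1.46 on the log2 scale. The hexose importer STP13 rose (4.13 ± 0.60, and 4.82 without intact replicate 1) to 72.1 CPM in the scions, against 4.13 CPM in the intact hypocotyls, and the sucrose importer SUC1 rose by 1.76 ± 0.29.

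Secondary metabolism shifted too, and its counts are to be set beside the 29.0% of all loci called higher and the 25.2% called lower. All tested aliphatic glucosinolate genes but MAM3 (1.29 ± 0.75, adjusted p 0.149, called higher in a fit of the 6 libraries alone and with the replicate block) fell: 15 of 16 tested were called lower and 0 higher, with a median of -2.85. BCAT4, which opens the chain elongation of methionine, stood at 10.3, 9.15 and 14.7 CPM in the scions, against 205, 188 and 191 CPM in the intact hypocotyls (log2 change -4.1 ± 0.32, adjusted p 2.3e-11). CYP79F1, the first enzyme of the core pathway, stood at 5.69, 8.30 and 11.7 CPM in the scions, against 243, 327 and 268 CPM in the intact hypocotyls (-5.03 ± 0.51). The regulators MYB28 (26.3, 27.7 and 29.4 CPM in the scions, against 153, 203 and 188 CPM in the intact hypocotyls) and MYB29 (0.967, 0.203 and 1.17 CPM in the scions, against 14.7, 26.9 and 22.6 CPM in the intact hypocotyls) fell as well. None of the 4 genes had overlapping groups. The indole branch was divided, with 6 of 15 called higher (3 without Col-0 intact replicate 2 or scion replicate 1) and 6 lower: CYP79B3 fell (-2.48 ± 0.21), with 90.4, 61.0 and 79.8 CPM in the scions, against 457, 424 and 407 CPM in the intact hypocotyls, while CYP81F2, which hydroxylates indole glucosinolates, rose by 1.96 ± 0.58. PAD3, the last enzyme of the phytoalexin camalexin, averaged 3.74 CPM in the scions and 0.169 CPM in the intact hypocotyls (4.45 ± 0.73, and 5.19 without intact replicate 3).

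Of 19 tested genes of flavonoids and anthocyanins, 6 were called higher and 1 lower, beside 29.0% and 25.2% of all loci, with a median of 0.61. The share called higher (31.6%) thus lay near that of all loci. Lower calls numbered 2 when intact replicate 2 or rootstock replicate 3 was left out. Chalcone synthase, encoded by TT4 and the entry to the pathway, stood at 36.1, 41.5 and 92.5 CPM in the scions, against 2.16, 2.48 and 4.27 CPM in the intact hypocotyls (log2 change 4.26 ± 0.80, adjusted p 4.6e-05). DFR, which leads to anthocyanins, stood at 78.4, 46.0 and 96.5 CPM in the scions, against 2.205, 5.28 and 5.69 CPM in the intact hypocotyls (4.06 ± 0.89). The scion libraries of both genes spread by about 2-fold or more and still lay above every intact library. Of the 6 that rose, LDOX, C4H, 5MAT and MYB111 lost their calls under 1 or more alternatives. The repressor MYBL2 fell (-2.78 ± 0.35), with 10.1, 10.8 and 11.5 CPM in the scions, against 97.0, 73.4 and 52.6 CPM in the intact hypocotyls. The activators PAP1 and PAP2 were not called, and F3H had 0 counts in all 6 libraries.

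The vascular tissues rejoin across the graft, and their genes are given by tissue; differences between these lists were not tested. Of 22 tested cambium genes, 11 were called higher and 4 lower, beside 29.0% and 25.2% of all loci, with a median of 0.95. LBD11, a gene of cambium activity, stood at 97.3, 99.6 and 82.8 CPM in the scions, against 0.138, 0.210 and 0.0918 CPM in the intact hypocotyls (log2 change 9.22 ± 0.63, adjusted p 8.2e-13). WOX4, the homeobox gene that keeps the cambium dividing, stood at 20.6, 27.2 and 23.8 CPM in the scions, against 6.75, 3.78 and 5.60 CPM in the intact hypocotyls (2.15 ± 0.19), and SMXL5 at 158, 140.0 and 153 CPM in the scions, against 50.6, 40.4 and 40.7 CPM in the intact hypocotyls (1.77 ± 0.14). CLE41 and CLE44, which encode the TDIF peptide that WOX4 answers, averaged 49.0 CPM in the scions and 11.4 CPM in the intact hypocotyls (2.11 ± 0.32) and 8.25 CPM in the scions and 0.771 CPM in the intact hypocotyls (3.44 ± 0.40). PXY, the receptor of that peptide, rose by 0.60 ± 0.19 (adjusted p 0.052 without Col-0 intact replicate 1). BES1, a brassinosteroid response factor, fell (-1.58 ± 0.22), with 133, 146 and 156 CPM in the scions, against 321, 558 and 420.1 CPM in the intact hypocotyls, and the receptor kinase gene ER fell by 1.13 on the log2 scale.

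Early phloem genes rose more often than they fell, with 11 of 20 tested called higher, 3 lower and a median of 0.64. Of all loci, 29.0% were called higher and 25.2% lower. OPS, a polar protein of young sieve elements, stood at 166, 144 and 137 CPM in the scions, against 17.4, 18.3 and 14.8 CPM in the intact hypocotyls (log2 change 3.15 ± 0.15, adjusted p 1.1e-15). CALS7, which coats sieve pores with callose, stood at 12.1, 12.8 and 11.7 CPM in the scions, against 1.88, 2.83 and 2.16 CPM in the intact hypocotyls (2.41 ± 0.36), and the receptor kinase gene BAM3 at 121, 125 and 137 CPM in the scions, against 75.1, 77.3 and 73.2 CPM in the intact hypocotyls (0.76 ± 0.16). The enucleation factors NAC45 and NAC86 rose by 2.28 ± 0.50 and 2.92 ± 0.62, and their target NEN4 by 2.47 ± 0.60. Without Col-0 intact replicate 1 the change of NAC86 was 4.23. APL and SEOR1, markers of later phloem, were not called, with log2 changes of -0.18 ± 0.17 and -0.13 ± 0.29. AHA3, the proton pump of companion cells, fell (-1.73 ± 0.25), with 14.1, 16.6 and 19.8 CPM in the scions, against 62.8, 49.2 and 55.8 CPM in the intact hypocotyls.

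Most xylem genes were not called. Of 24 tested genes of xylem and secondary walls, 2 were called higher, 6 lower and 16 neither, with a median of -0.50. Of all loci, 29.0% were called higher and 25.2% lower. Of the rises, that of MYB63 kept its call under every alternative run, and that of XND1 lost it without any 1 of the intact libraries and without scion replicate 2 or 3. FLA11, an arabinogalactan protein of secondary walls, stood at 3.42, 4.14 and 7.45 CPM in the scions, against 14.7, 13.3 and 22.1 CPM in the intact hypocotyls (log2 change -1.74 ± 0.46, adjusted p 0.0019). ACL5, which makes thermospermine in young vessels, stood at 35.1, 36.4 and 46.2 CPM in the scions, against 104, 87.8 and 103 CPM in the intact hypocotyls (-1.32 ± 0.42). The protease genes of dying vessels XCP1 and XCP2 averaged 53.0 CPM in the scions and 37.2 CPM in the intact hypocotyls and 54.9 CPM in the scions and 74.7 CPM in the intact hypocotyls, and neither passed. VND7, a switch of vessel fate, averaged 1.60 CPM in the scions and 0.788 CPM in the intact hypocotyls and did not pass (1.02 ± 0.62, adjusted p 0.169). No HD-ZIP III or LITTLE ZIPPER gene was called among 7 tested. PHB, the most highly counted of that list, stood at 28.9, 29.3 and 31.5 CPM in the scions, against 35.2, 70.6 and 47.8 CPM in the intact hypocotyls (-0.78 ± 0.34, adjusted p 0.056), and it was called lower under DESeq2, RLE size factors, a filter of 1 CPM, a fit of the 6 libraries alone, the replicate block and without intact replicate 1, at -0.73 to -0.99. In each of these 2 members of the list were called lower.

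Of 20 tested expansins, which loosen walls at low pH, 12 were called higher and 3 lower, beside 29.0% and 25.2% of all loci. EXPA4 stood at 1140.3, 1305 and 1210.3 CPM in the scions, against 35.3, 41.2 and 37.7 CPM in the intact hypocotyls (log2 change 5.00 ± 0.30, adjusted p 4.4e-14), and EXPA10 averaged 215 CPM in the scions and 17.3 CPM in the intact hypocotyls (3.63 ± 0.45). The expansin-like genes EXLA1 and EXLA2 rose by 6.10 ± 0.60 and 5.13 ± 0.42. Without Col-0 intact replicate 2 the change of EXLA2 was 5.76. EXPA5 and EXPA11, which had their higher level in uncut tissue, fell, with EXPA11 at 28.6, 28.4 and 41.3 CPM in the scions, against 182, 151 and 187 CPM in the intact hypocotyls (-2.40 ± 0.47). Expansins took 0.372%, 0.413% and 0.450% of the scion libraries, against 0.173%, 0.227% and 0.226% of the intact libraries.

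Xyloglucan endotransglucosylases (XTH), which cut and rejoin the xyloglucan tethers of the wall, rose in many members, while their summed share was lower in every scion library. Of 23 tested, 14 were called higher and 5 lower, beside 29.0% and 25.2% of all loci, with a median of 2.29. Lower calls numbered 3 without Col-0 intact replicate 3, scion replicate 1 or scion replicate 2. XTH19 stood at 88.6, 117 and 152 CPM in the scions, against 0.0919, 0.385 and 0 CPM in the intact hypocotyls (log2 change 9.36 ± 0.79, and 11.19 without intact replicate 2, adjusted p 4.9e-11). XTH23 stood at 51.2, 57.7 and 52.2 CPM in the scions, against 0, 1.05 and 0.0459 CPM in the intact hypocotyls (7.02 ± 0.65, and 10.90 without intact replicate 2) and XTH9 at 74.3, 91.1 and 111 CPM in the scions, against 10.2, 6.43 and 8.86 CPM in the intact hypocotyls (3.44 ± 0.30). All 3 were at or under 10.2 CPM in every intact library. The abundant members of uncut hypocotyls, XTH4 (669, 738 and 916 CPM in the scions, against 4342, 2393 and 3675 CPM in the intact hypocotyls) and XTH7 (1008, 1030.4 and 1159 CPM in the scions, against 2349.9, 1478 and 2419 CPM in the intact hypocotyls), fell by 2.16 and 0.97. The family as a whole took 0.310%, 0.347% and 0.388% of the scion libraries, against 0.689%, 0.500% and 0.724% of the intact libraries. XTH18 and XTH19 are close copies, and reads could be split between them.

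Endoglucanases and pectin enzymes changed in part. GH9B3, a secreted cellulase, stood at 96.3, 129 and 134 CPM in the scions, against 0.0459, 0.175 and 0.0459 CPM in the intact hypocotyls (log2 change 10.21 ± 0.42, and 11.19 without intact replicate 2, adjusted p 2.9e-16). The pectin methylesterase genes PME2 and PME41 stood at 35.2, 46.9 and 39.3 CPM in the scions, against 0.230, 0.175 and 0.229 CPM in the intact hypocotyls (7.57 ± 0.43) and 52.6, 86.7 and 82.6 CPM in the scions, against 1.15, 4.51 and 0.321 CPM in the intact hypocotyls (5.16 ± 0.49, and 6.64 without intact replicate 2). KOR1, the cellulase of the cellulose synthase complex, fell by 0.79, with 599, 599 and 679 CPM in the scions, against 1260.4, 839 and 1138 CPM in the intact hypocotyls. The cellulose synthase genes CESA1 and CESA6 were not called, with log2 changes of -0.13 ± 0.16 and -0.25 ± 0.13.

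Of 31 tested auxin genes, 11 were called higher and 12 lower, beside 29.0% and 25.2% of all loci, with a median of 0.01. ARF5 (MONOPTEROS), the auxin response factor of vascular patterning that activates TMO6, stood at 70.1, 80.7 and 71.3 CPM in the scions, against 16.5, 17.9 and 10.2 CPM in the intact hypocotyls (log2 change 2.31 ± 0.20, adjusted p 4.7e-11). The auxin exporter ABCB1 stood at 280.1, 321 and 307 CPM in the scions, against 116, 139.6 and 118 CPM in the intact hypocotyls (1.28 ± 0.17). Both were separated upward. Of the early response genes, IAA19, IAA5 and IAA1 rose, IAA19 averaging 20.9 CPM in the scions and 2.18 CPM in the intact hypocotyls (3.27 ± 0.46, and 4.04 without intact replicate 3), while IAA29, IAA14, IAA3 and IAA7 fell. LAX3, an importer, fell (-1.87 ± 0.26), with 14.2, 17.1 and 23.1 CPM in the scions, against 66.7, 50.1 and 82.7 CPM in the intact hypocotyls, and AUX1, ABCB19, PIN4 and PIN7 fell by less. YUC9 of auxin synthesis rose too, being at least 18.99-fold higher than a floor of 3 counts over the intact group.

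Cytokinin genes fell more often than they rose. Of 19 tested, 5 were called higher (2 with a filter of 1 CPM and 1 in a fit of the 6 libraries alone) and 9 lower, with a median of -1.42. The share called higher (26.3%) lay near the 29.0% of all loci, and the share called lower (47.4%) lay above their 25.2%. The type-A response regulators, which cytokinin switches on, were lower where they were called: ARR9 stood at 3.72, 2.41 and 2.23 CPM in the scions, against 22.8, 26.6 and 34.2 CPM in the intact hypocotyls (log2 change -3.32 ± 0.38, adjusted p 2.0e-08) and ARR5 at 0.670, 1.08 and 3.401 CPM in the scions, against 29.4, 20.7 and 26.8 CPM in the intact hypocotyls (-3.91 ± 0.61, and -4.85 without scion replicate 3). ARR8 fell by 2.74 on the log2 scale. ARR4 had a log2 change of -4.49 ± 0.71, and -5.13 without scion replicate 3. ARR6 had a log2 change of -5.65 ± 0.92, and -5.06 without scion replicate 1 and -8.39 without scion replicate 3. ARR7 did not pass. IPT3 and IPT5 of cytokinin synthesis fell by 2.29 and 1.87 on the log2 scale. CKX5, a cytokinin oxidase, averaged 7.29 CPM in the scions and 0.426 CPM in the intact hypocotyls (4.1 ± 0.48).

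Among ethylene genes, 4 ACC synthases were higher, and most of the genes of perception and signalling were lower. Of 20 tested genes, 6 were called higher and 11 lower, beside 29.0% and 25.2% of all loci, with a median of -0.42. The share called higher thus lay near that of all loci, while the share called lower lay above theirs. ACS7, of the rate-limiting ACC synthases, had 9.75, 14.2 and 7.17 CPM in the scions and 0 counts in the intact hypocotyls, at least 254-fold higher. ACS8 was likewise at 0 in the intact group and at least 71.2-fold higher, ACS11 had a CPM ratio of 126 (counting interval 22.3 to 5027), and ACS2 rose by 4.90 ± 0.68, and 4.22 to 9.74 without 1 of intact replicate 2 and intact replicate 3. The receptor genes ERS2 and ETR2 fell, ERS2 with 8.11, 9.05 and 12.6 CPM in the scions, against 31.2, 36.3 and 34.4 CPM in the intact hypocotyls (-1.78 ± 0.21, adjusted p 1.9e-08), and so did EIN2, EIN3, EBF1 and EBF2. ACO4, an ACC oxidase, stood at 143, 143 and 161 CPM in the scions, against 552, 485 and 732 CPM in the intact hypocotyls (-1.98 ± 0.21). Of the 5 receptor genes, 4 were called lower and EIN4 higher (0.48 ± 0.15), a call lost in a fit of the 6 libraries alone and without Col-0 intact replicate 3 (0.39, adjusted p 0.050). Of 13 tested genes of the hypoxia response, to which ETR2 also belongs, 4 were called higher and 4 lower, near the 29.0% and 25.2% of all loci. Lower calls numbered 2 without Col-0 intact replicate 1, scion replicate 1 or scion replicate 2. PDC1, a pyruvate decarboxylase of fermentation, averaged 1.72 CPM in the scions and 0.554 CPM in the intact hypocotyls (1.63 ± 0.53).

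Jasmonate genes showed 8 rises and 8 falls among 26 tested, close to the 29.0% and 25.2% of all loci, with 5 rises without Col-0 intact replicate 3 and 5 falls without scion replicate 3. AOC3 and AOC4, allene oxide cyclases of jasmonate synthesis, stood at 25.7, 22.3 and 17.8 CPM in the scions, against 1.88, 0.489 and 0.459 CPM in the intact hypocotyls (log2 change 4.56 ± 0.40, and 5.51 without intact replicate 1) and 106, 115 and 102 CPM in the scions, against 34.4, 27.8 and 34.8 CPM in the intact hypocotyls (1.74 ± 0.22). The repressor genes JAZ9 (17.3, 21.7 and 16.0 CPM in the scions, against 72.0, 111 and 77.4 CPM in the intact hypocotyls) and JAZ3 fell by 2.24 and 1.11. JAZ10, which jasmonate induces, rose by 2.49 ± 0.41.

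Families of stress response rose in parts. Their counts are to be set beside the 29.0% of all loci called higher and the 25.2% called lower. Of 43 tested glutathione transferases, which conjugate toxic and reactive compounds, 26 were called higher and 8 lower, and the family took 1.06%, 0.963% and 0.842% of the scion libraries, against 0.455%, 0.449% and 0.500% of the intact libraries. GSTU4 stood at 39.7, 48.0 and 38.9 CPM in the scions, against 0.184, 0.140 and 0.413 CPM in the intact hypocotyls (log2 change 7.44 ± 0.44, adjusted p 3.9e-14) and GSTU24 at 219, 151 and 129 CPM in the scions, against 6.89, 5.03 and 9.41 CPM in the intact hypocotyls (4.55 ± 0.33), while GSTU18 stood at 5.28, 5.66 and 7.53 CPM in the scions, against 37.0, 43.2 and 49.4 CPM in the intact hypocotyls (-2.81 ± 0.25). Of 37 class III peroxidases, which cross-link or loosen walls with peroxide, 23 were called higher and 3 lower, with a median of 3.6 that is 2.78 where genes with 0 counts in a group are set to their bound, and 2.57 without Col-0 scion replicate 1. Prx37 stood at 172, 210.4 and 193 CPM in the scions, against 11.9, 6.75 and 8.54 CPM in the intact hypocotyls (4.41 ± 0.55). Of 52 WRKY factors, 29 were called higher and 2 lower (median 1.31, or 1.24 with bounds), with WRKY23 at 21.0, 25.6 and 30.1 CPM in the scions, against 0.322, 0.385 and 0 CPM in the intact hypocotyls (6.67 ± 0.44, and 7.27 without intact replicate 2) and WRKY6 at 61.3, 55.5 and 41.5 CPM in the scions, against 4.13, 4.405 and 2.07 CPM in the intact hypocotyls (3.89 ± 0.28). These families were gathered by the name in the annotation, and the named members are among those with the smallest adjusted p.

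Water, light and surface genes completed the picture of the tissue. The counts of these lists are to be set beside the 29.0% of all loci called higher and the 25.2% called lower. Of 17 tested aquaporins, 2 were called higher and 6 lower (3 without Col-0 intact replicate 3, scion replicate 1 or scion replicate 2), PIP2;5 standing at 63.0, 66.1 and 72.2 CPM in the scions, against 2.39, 4.05 and 5.60 CPM in the intact hypocotyls (log2 change 4.06 ± 0.36, adjusted p 1.4e-10) and PIP2;6 at 124, 125 and 154 CPM in the scions, against 532, 396 and 662 CPM in the intact hypocotyls (-1.98 ± 0.23). Of 16 clock genes, 2 were called higher and 9 lower. The morning genes CCA1 (11.3, 22.03 and 32.3 CPM in the scions, against 145, 119.7 and 119 CPM in the intact hypocotyls) and RVE1 (1.79, 4.88 and 5.71 CPM in the scions, against 41.2, 53.2 and 33.5 CPM in the intact hypocotyls) fell by 2.55 and 3.37, and the evening gene LUX rose by 1.68 ± 0.24. The other rise, of TOC1, was lost under most alternatives. The hour of the day of sampling is not given in the labels. Of 18 tested cuticle and epidermis genes, 6 were called higher and 7 lower: CYP86A4, a cutin hydroxylase, stood at 67.6, 81.2 and 107 CPM in the scions, against 3.77, 2.80 and 1.70 CPM in the intact hypocotyls (4.95 ± 0.51), and PDF2, an epidermal identity factor, at 64.9, 51.1 and 55.1 CPM in the scions, against 127, 106 and 98.5 CPM in the intact hypocotyls (-0.95 ± 0.14). Of 12 endodermis and suberin genes, 3 were called higher and 2 lower, or 1 and 0 without Col-0 intact replicate 2, and lower calls numbered 1 without intact replicate 1, scion replicate 2 or scion replicate 3. ASFT, which makes suberin aromatics, stood at 16.4, 9.22 and 5.14 CPM in the scions, against 1.98, 0.524 and 1.24 CPM in the intact hypocotyls (3.07 ± 0.80).

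Markers of other tissues were counted too. Of the 12 root tip and root hair genes only SHR, which the stele expresses too, had enough counts to be tested (45.1 CPM in the scions and 44.6 CPM in the intact hypocotyls, log2 change 0.02 ± 0.19, adjusted p 0.957), and 6 of the 12 were at 0 in all 6 libraries, among them EXPA7, COBL9 and RSL4. Of the 8 shoot apex genes, WUS and CLV3 were at 0 in all 6 libraries, and the list took 0.0156%, 0.0158% and 0.0178% of the scion libraries, against 0.0184%, 0.0162% and 0.0187% of the intact libraries. Of the 4 tested, 2 were called lower than in intact tissue and 0 higher. CLV1 did not keep its call when any 1 scion, intact replicate 1 or intact replicate 3 was left out, and 1 gene was called higher in a fit of the 6 libraries alone and with the replicate block. CLV1 averaged 89.8 CPM in the scions and 128 CPM in the intact hypocotyls (-0.51 ± 0.21), and KNAT2 fell by 1.26 on the log2 scale. Against the rootstock, 2 of the 4 were called higher in the scion and 0 lower. Their part in the other results was not tested. The markers that a hypocotyl should hold were present: the epidermal ATML1 averaged 64.4 CPM in the scions and 115 CPM in the intact hypocotyls, and the phloem gene APL 11.2 CPM in the scions and 12.7 CPM in the intact hypocotyls.

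Genes were also ranked by their change in CPM and by fold, among called loci with a reference symbol whose groups did not overlap. A gain in CPM is not comparable between genes of different length. LTP2, a lipid transfer protein of the cuticle, stood at 8551, 10197 and 11023 CPM in the scions, against 589, 530.0 and 595 CPM in the intact hypocotyls (log2 change 4.12 ± 0.31, adjusted p 4.7e-12), and had the largest gain in CPM of these. EXT4, a structural extensin, stood at 2459.9, 4723 and 3295 CPM in the scions, against 24.8, 41.9 and 2.11 CPM in the intact hypocotyls (7.25 ± 0.96, and 8.02 without intact replicate 2), and AZI1, a lipid transfer-like protein of induced immunity, at 1775, 2636 and 2042 CPM in the scions, against 99.1, 56.5 and 83.0 CPM in the intact hypocotyls (4.76 ± 0.46). Each of these had every scion library above every intact library. The glycine-rich protein genes GRP3S and GRP5, the genes of the methyl cycle HOG1 and ATMS1, and DHAR1, which recycles ascorbate, made up the rest of the 8, with GRP5 at 1878, 1648 and 1894 CPM in the scions, against 69.5, 59.1 and 50.3 CPM in the intact hypocotyls (4.92 ± 0.24). For the ranking by fold, a gene also needed a mean of at least 10 CPM in its higher group and at least 10 counts summed over its lower group, which leaves out genes with next to no counts in 1 group, such as GPT2, ERF115 and ANAC071. Under that rule the 8 largest rises were those of XTH19, LBD11, ERF114 and PME2, described above, and RNS1, a secreted ribonuclease of wounding and phosphate starvation, at 102, 105 and 108 CPM in the scions, against 0.184, 0.280 and 0.275 CPM in the intact hypocotyls (8.69 ± 0.81). The phosphate transporter gene PHT1;4 (7.74 ± 0.59, and 8.94 without intact replicate 2), the trypsin inhibitor gene TI1 (7.50 ± 0.69, and 8.33 without intact replicate 2) and EARLI1 (8.23 ± 1.12) completed it. The 8 largest losses in CPM were photosynthesis genes (LHCB1.1, LHCB1.2, LHCB1.3, LHCB3, LHCA4, PSBR, RCA and RBCS1A). Under the same rule for fold, FBA5, a fructose bisphosphate aldolase, had the most negative log2 change, with 0, 0.0678 and 0.324 CPM in the scions, against 98.7, 54.8 and 66.0 CPM in the intact hypocotyls (-9.14 ± 0.68, and -10.82 without scion replicate 3). GER3, a germin of the wall, stood at 0, 0.339 and 0.202 CPM in the scions, against 48.0, 23.6 and 65.1 CPM in the intact hypocotyls (-7.91 ± 0.69, and -8.79 without scion replicate 2), and RL4, SWEET11, CA1, CA2, MSRB6 and CYCP2;1 made up the rest.

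Set against the tissue on the other side of the cut, the scion differed in 8997 of 19476 loci (46.2%), with 4584 called higher (23.5%) and 4413 lower (22.7%). Without Col-0 rootstock replicate 1, 7762 were called. The 3 scion libraries enter this comparison and the one with intact tissue alike, so values are given side by side.

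Replication and photosynthesis separated the 2 sides, and mitosis did so in few genes. Of the 25 replication genes, 20 were called higher in the scion than in the rootstock and 0 lower, beside 23.5% of all loci (18 and 0 without rootstock replicate 1). PCNA1 had 31.3, 30.3 and 29.4 CPM in the scions, against 13.9, 12.01 and 16.0 CPM in the rootstocks (log2 change, scion over rootstock, 1.12 ± 0.25, adjusted p 6.0e-04; 1.12 also without rootstock replicate 1). Of the 27 mitosis genes, 3 were called higher and 0 lower (2 and 0 without it), and CYCB1;4 had 23.5, 20.4 and 27.2 CPM in the scions, against 27.3, 25.3 and 25.6 CPM in the rootstocks, which overlapped. Of the 128 cytosolic ribosomal proteins, 114 were called higher and 1 lower (95 and 1 without it). Of the 30 photosystem genes, 29 were called lower than in the rootstock, with or without that library, beside 22.7% of all loci. RCA had 1141, 1018 and 1303 CPM in the scions, against 7385, 8066 and 7515 CPM in the rootstocks (-2.73 ± 0.16; -2.76 without rootstock replicate 1).

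Sugar genes differed between the sides as well. Of 14 tested starvation genes, 13 were called lower in the scion than in the rootstock (12 without rootstock replicate 1). SWEET11 had 0.484, 0.271 and 0.324 CPM in the scions, against 152, 101 and 186 CPM in the rootstocks (log2 change -8.65 ± 0.40; -8.63 without rootstock replicate 1). GPT2 had 61.5, 43.6 and 66.5 CPM in the scions, against 0.600, 0 and 0 CPM in the rootstocks, and CWINV1 181, 229.9 and 191 CPM in the scions, against 1131, 1184 and 749 CPM in the rootstocks (-2.35 ± 0.28; -2.27 without rootstock replicate 1). So GPT2 was counted almost only in scions, while CWINV1 was above its intact level in the scions and higher still in the rootstocks. The aliphatic glucosinolate genes, lower than intact, were higher than the rootstock in 15 of 16, also without rootstock replicate 1, with BCAT4 at 10.3, 9.15 and 14.7 CPM in the scions, against 0.04998, 0.121 and 0 CPM in the rootstocks (7.37 ± 0.53; 7.25 without rootstock replicate 1 and 8.50 without rootstock replicate 2). Among xylem genes, 14 of 24 were called higher in the scion than in the rootstock and 0 lower, as without rootstock replicate 1. Of all loci, 23.5% were called higher and 22.7% lower there. Against intact tissue, 19 of the xylem genes were called lower in the rootstock and 1 higher (median -1.95). In the scion 6 were called lower and 2 higher (median -0.50), so the xylem genes were not raised above intact tissue as a list. TT4 had 36.1, 41.5 and 92.5 CPM in the scions, against 0.600, 0.202 and 0.560 CPM in the rootstocks.

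**Figure D5:**
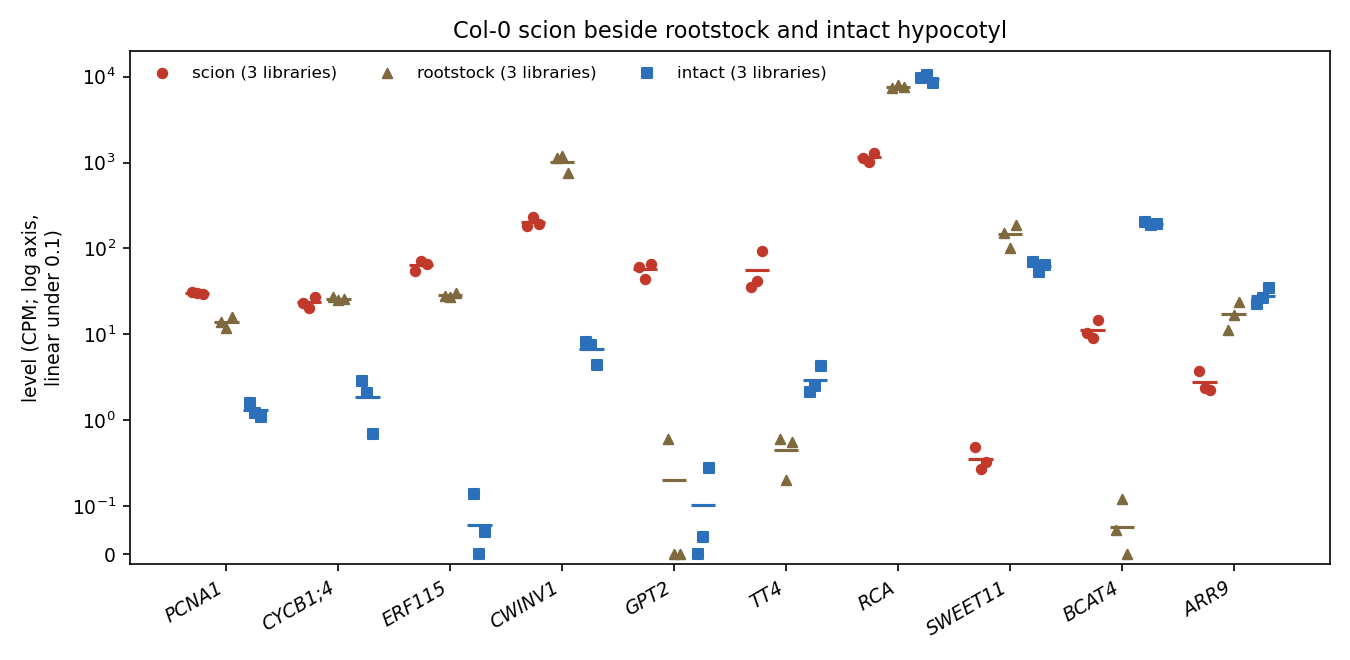
Level in CPM (vertical axis, log scale that turns linear under 0.1) of 10 genes in the 3 Col-0 scion (circles), rootstock (triangles) and intact (squares) libraries. Horizontal bars are means. CYCB1;4 overlaps between scion and rootstock, RCA and ARR9 are lowest in the scion, and BCAT4 lies between the rootstock and the intact level.

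The targeted genes divided between the sides. ERF115 had 54.7, 70.7 and 66.4 CPM in the scions, against 28.2, 27.6 and 30.1 CPM in the rootstocks (log2 change 1.16 ± 0.28, adjusted p 0.0015; 1.15 without rootstock replicate 1), and ERF114 overlapped (-0.13 ± 0.36). ANAC071 was higher in the scions (0.86 ± 0.32, adjusted p 0.032), a call lost without rootstock replicate 1 (0.67, adjusted p 0.14), rootstock replicate 2, scion replicate 2 or scion replicate 3. HCA2, TMO6 and DOF2.1 were lower in the scions than in the rootstocks, with log2 changes of -0.75 ± 0.19, -0.82 ± 0.19 and -0.78 ± 0.24 (-0.80, -0.87 and -0.79 without rootstock replicate 1), with TMO6 at 116, 119.8 and 120.0 CPM in the scions, against 196, 177 and 256 CPM in the rootstocks. ANAC096 did not pass (-0.63 ± 0.28, adjusted p 0.060; 0.011 with the replicate number as a block).

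The same contrast in the mutants compares none of these 6 libraries. All 36 libraries were fitted together with a shared estimate of the spread, however, so the calls are not fully independent of the Col-0 calls. The contrast called 54.2% of the tested loci in dof quadruple, 50.3% in erf114,115 and 49.9% in anac071,096. Of the 5655 loci called higher in the Col-0 scion, 84.2% were also called higher in the dof quadruple scion over its own intact hypocotyl (where 28.7% of all loci were), 86.1% in erf114,115 (28.7%) and 83.0% in anac071,096 (27.0%). In all 3 mutants 3948 (69.8%) were called higher. Calls in the opposite direction numbered 15, 4 and 8. Of the 4903 called lower, 81.6% were also called lower in dof quadruple (25.6% of all loci), 77.0% in erf114,115 (21.6%) and 80.1% in anac071,096 (22.9%), and 3184 (64.9%) in all 3. Opposite calls numbered 2, 0 and 0.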

How the data were processed

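Polyadenylated RNA was sequenced from 36 libraries in 12 groups of 3, which the series describes as biological replicates. Libraries were amplified with 13 PCR cycles, per the labels' protocols. The deposited values are whole-number counts per locus; the submitters' processing notes name fastp, HISAT2, HTSeq, DESeq2 and TAIR10, while the strand setting is not given in the sources used here, nor is the annotation release. Without a strand setting, overlapping and antisense loci cannot be told apart, and near-identical copies may share reads. Of 33341 loci, 33056 were matched by identifier to the RefSeq annotation of TAIR10.1, which also gave symbols, family names and promoters.

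Counts of all 36 libraries were fitted together (24 residual degrees of freedom, common biological coefficient of variation 25.8%) with edgeR 4.0.16 (limma 3.58.1, R 4.3.3): filterByExpr with a minimum count of 10, TMM scaling, the robust quasi-likelihood test and Benjamini-Hochberg adjustment over 19476 loci at 0.05. SE is the log2 change divided by the root of F. Library shares were compared with a two-sided exact permutation test. Floors are 3 counts over a group and counting intervals are exact at 95%, and both cover counting error only. Totals were 19.5 to 30.5 M counts over the series. The fit was tested on simulated counts in which few loci differed between scion and intact tissue. That test does not cover changes as widespread as those of the real libraries. Tables and figures used Python 3.11.15, pandas 2.3.3, NumPy 2.4.6 and matplotlib 3.10.9.

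The members and gene lists (33 lists, 683 loci, and 20 families by annotation name) were chosen with earlier results of these data known. Named genes are the 8 targeted genes, the 8 largest changes each way in mean CPM and in log2 among called loci with a reference symbol and separated groups (for log2, also a mean of at least 10 CPM in the higher group and at least 10 counts summed over the lower), and in each list up to 4 called members with at least 10 CPM and the smallest adjusted p, plus up to 2 of the rarer direction. The same rule was used for families after their values were seen, and further members named beside these were likewise chosen after their values were seen. Same-numbered scion and rootstock libraries deviated together (correlations 0.26, 0.11 and 0.30 over 11259 loci); the labels do not say what a number marks. The alternatives were other scalings and filters, DESeq2 1.42.0, the 6 libraries alone, the replicate number as a block, leaving out each library, and promoters of 150 bases.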

Additional observations from a re-analysis of the deposited data

Results flagged for a closer look

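Of all tested loci, 46.2% were called between scion and rootstock, so calls among the named genes are no trait of these genes. The genes looked at were the 8 targeted genes and the first named gene of each of the 33 lists, the targeted genes being 1 list. Among them, 20 differed between scion and rootstock in a direct test of that difference (edgeR's quasi-likelihood test, 3 libraries each, log2 change of scion over rootstock). Both tissues share the same intact hypocotyls as their baseline, so this is also the difference between their changes from intact tissue. The regulators ERF115 (1.16), ANAC071 (0.86) and LBD16 (0.93), the replication clamp gene PCNA1 (1.12), the growth regulator gene EBP1 (0.93), the cell cycle inhibitor gene KRP2 (0.51), the aliphatic glucosinolate gene BCAT4 (7.37), the aquaporin gene PIP2;5 (2.78) and the cutin gene CYP86A4 (1.56) were higher in the scion. The DOF genes HCA2 (-0.75), TMO6 (-0.82) and DOF2.1 (-0.78), the photosynthesis genes PSBO2 (-2.60) and RCA (-2.73), the sugar genes CWINV1 (-2.35) and SWEET11 (-8.65), the anthocyanin repressor gene MYBL2 (-4.10), the ethylene synthesis gene ACS7 (-1.38), the cytokinin response gene ARR9 (-2.64) and the clock gene RVE1 (-3.75) were lower in the scion. The call of KRP2 was lost without Col-0 rootstock replicate 1 (0.47, adjusted p 0.062), rootstock replicate 3 or scion replicate 1. LBD16 lost its call without rootstock replicate 2 or 3 or scion replicate 1 or 2, and ANAC071 without rootstock replicate 1 or 2 or scion replicate 2 or 3. Without rootstock replicate 1 the calls of the 18 genes other than KRP2 and ANAC071 were kept, and BCAT4 was at 8.50 without rootstock replicate 2.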

How the results depend on the processing

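Calls of scion against intact numbered 9406 (without Col-0 scion replicate 2) to 11464 (replicate number as a block) over all alternatives, beside 10558, and 49.1% to 55.1% of them were higher, beside 53.6%. The scion and intact numbers gave no sign of pairing (correlations 0.04, -0.06 and 0.17), and the block left every summary count within 1.5 times its value. Calls of scion against rootstock numbered 7710 to 10120 (the replicate block), beside 8997. Upper-quartile scaling moved the median log2 change of all loci in that comparison to 0.20, beside 0.08, and the share of higher calls to 59.3%, beside 50.9%. With the block, ANAC096, CYP79B3, FLA11, XTH18 and MYB60 were also called between scion and rootstock, and it ended no call of a named gene there. The named genes' log2 changes under the alternatives were tallied together with the total calls of each comparison. Of these, 3078 kept their side of the threshold (for totals, stayed within 1.5 times), 68 lost it, 27 gained it and 0 changed sign where called. Counting low loci without a filter reduced medians of lists with silent members: wound regulators 0.47 (1.76 with the filter), expansins 0.53 (1.14), class III peroxidases 1.02 (3.596) and cytokinin -0.71 (-1.42). The hypoxia median turned to -0.74 to -0.85 (0.30) without scion replicate 1, in the 6 libraries alone or with a filter of 1 CPM. Site II letters preceded 13.7% of core histone genes within 150 bases, beside 29.4% within 250. With 3 libraries a group, an exact test of a single value cannot pass under 0.1, genes with few counts rest on counting error, and the deposited counts do not show how many cells each piece held.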

Other observations

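Families that the text has not yet described moved in both directions. Of 96 bHLH factors, 22 were called higher and 35 lower, beside 29.0% and 25.2% of all loci. HFR1, a factor of light signalling, stood at 2.05, 1.25 and 1.82 CPM in the scions, against 24.2, 25.0 and 29.8 CPM in the intact hypocotyls (log2 change -3.95 ± 0.28, adjusted p 9.5e-13). HBI1, which promotes growth, stood at 19.5, 23.5 and 23.8 CPM in the scions, against 158, 289 and 165 CPM in the intact hypocotyls (-3.20 ± 0.32). Both had every scion library below every intact library. Of 122 tested cytochrome P450 genes, 26 were called higher and 46 lower, with a median of -0.14 and CYP71B2 at 9.79, 16.6 and 15.3 CPM in the scions, against 144, 137 and 164 CPM in the intact hypocotyls (-3.41 ± 0.21). Of 14 LBD factors, 4 were called higher and 4 lower. LBD37 and LBD39, known as nitrogen-responsive repressors, fell by 2.22 and 2.33 on the log2 scale, while LBD11 and LBD16 rose.

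NAC factors had 18 of 52 called higher and 11 lower, AP2 and ERF factors 22 and 19 of 72, MYB factors 23 and 16 of 67, and DOF factors 7 and 9 of 27, all beside 29.0% higher and 25.2% lower of all loci. OBP1, a DOF factor known to act on cell cycle genes, stood at 32.4, 33.4 and 29.8 CPM in the scions, against 6.48, 4.16 and 5.46 CPM in the intact hypocotyls (log2 change 2.57 ± 0.28), and OBP4, which restrains growth, at 47.5, 48.4 and 46.6 CPM in the scions, against 235, 199 and 185 CPM in the intact hypocotyls (-2.12 ± 0.18). Aminoacyl-tRNA synthetases, which charge the tRNAs that ribosomes use, had 19 of 51 called higher and 17 lower. ATKRS-1, for lysine, averaged 126 CPM in the scions and 64.5 CPM in the intact hypocotyls (0.96 ± 0.13), and EMB1030 averaged 21.0 CPM in the scions and 85.3 CPM in the intact hypocotyls (-2.02 ± 0.21). Pentatricopeptide repeat proteins, which process organelle RNA, had 44 of 234 called higher and 45 lower. MRL1, needed for the chloroplast rbcL transcript, averaged 11.6 CPM in the scions and 61.7 CPM in the intact hypocotyls (-2.41 ± 0.30).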
